A study of Mus musculus with 69 samples.

Results

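Serpins and the heavy chains of the inter-alpha-trypsin inhibitors are protease inhibitors and carrier proteins of plasma that are made largely by hepatocytes. All probes of the array whose annotated gene symbol begins with Serpin or with Itih were taken, without regard to their signals: 68 probes of 54 genes, among 25697 probes and 16593 gene symbols. Of these, 60 probes stood for 49 serpin genes and 8 probes for the 5 heavy chain genes Itih1 to Itih5. A probe was tested where it was detected over background on at least 13 arrays, and 34 member probes of 26 genes passed, among 12442 tested probes in all. The 34 tested members comprised 27 probes of 21 serpin genes and 7 probes of the 5 heavy chains.

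The study asks how chronic feeding of rapamycin (Rapa), an inhibitor of the growth kinase mTOR, alters transcripts of the liver in old mice of both sexes. Livers were taken from 69 C57BL/6J mice aged 25 months, and total RNA of each was run on 1 Illumina MouseRef-8 bead array, with no pooling. Control animals received chow with the empty Eudragit capsule, and Rapa animals chow with encapsulated rapamycin, 14 ppm, over 21 months beginning at an age of 4 months. The groups were 19 control males, 7 Rapa-1 males, 6 Rapa-2 males, 16 control females and 21 Rapa females. Rapa-1 and Rapa-2 males had the same diet and were told apart by the study from the expression values of these same arrays, so p-values for either only describe these arrays and are no separate evidence on the diet. The male comparisons and the comparison of the sexes share the 19 control males. The Rapa female comparison and the comparison of the sexes share the 16 control females.

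A serpin holds out a reactive loop as bait; the protease that cuts it is trapped in a covalent complex, which receptors on hepatocytes then clear. Some serpins trap no protease and carry hormones, while clade B members remain inside cells. The heavy chains Itih1, Itih2 and Itih3 are joined to bikunin, the inhibitory light chain, and can be passed to hyaluronan in the matrix, whereas Itih4 circulates without bikunin and is known as an acute phase protein of the liver.

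The liver was recognisable in all groups, with summed normalized signals (linear scale) of 9 hepatocyte marker genes between 123541 and 195396 on single arrays. Genes of the sex chromosomes went with the labelled sex except in part for Rapa-2 males, apart from Uty, whose probe did not separate the sexes. Xist, transcribed from the silenced X, was detected on all 16 control female and 21 Rapa female arrays and on 0 arrays of the 6 Rapa-2 males, as on 0 of the 19 control and 7 Rapa-1 males. The Y-linked Eif2s3y ranged from 8.46 to 9.21 (log2 signal) in control males, 8.85 to 9.10 in Rapa-1 males, 6.85 to 7.31 in Rapa-2 males, 6.35 to 6.59 in control females and 6.21 to 6.69 in Rapa females. Rapa-2 males thus lay between the other males and the females, nearer the females, with a difference of -1.77 ± 0.09 from control males (adjusted p = 8.95e-15). The Y-linked Kdm5d was also called lower in them, by -0.43 ± 0.05 (adjusted p = 7.36e-08). It was detected on 0 of 6 Rapa-2 arrays, as on 0 female arrays, against 17 of 19 control male and 5 of 7 Rapa-1 arrays. Its range was 6.44 to 6.71 in Rapa-2 males, 6.77 to 7.18 in control males and 6.38 to 6.69 in control females. The cause was not tested. Comparisons of Rapa-2 males, and of all Rapa males, rest on the Rapa-2 arrays, and the Rapa-1 values are those without them. The arrays differed in brightness before scaling. The highest raw signal of any probe averaged 56625 ± 2600 (SD, n = 19) in control males, 57150 ± 2196 (n = 7) in Rapa-1 males, 42956 ± 2680 (n = 6) in Rapa-2 males, 39499 ± 4032 (n = 16) in control females and 37410 ± 3761 (n = 21) in Rapa females. Signals below are quantile-normalized log2 signals, given as mean ± SD, and differences are log2 differences ± SE from limma with p-values adjusted over all 12442 tested probes. A call needed an adjusted p under 0.05 together with a change over 15%. Differences between groups were taken within a probe, and raw signals of different probes are given only to show where they stand on the array, not as levels of their genes. In liver RNA as a whole, fewer cells of a type and less RNA per cell cannot be told apart.

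Members were among the brightest probes of the liver. Probe A of Serpina1b had a mean raw signal of 40032, ranked 8th (median) and was within the top 25 probes on 69 of 69 arrays. Probe B of Serpina1b followed with 39449.5, then Serpina1d with 37664, Serpina1c with 35961, Itih4 probe A with 25065, Serpinf1 with 19064, Serpina1e with 14803 and Itih4 probe B with 14445. These are means over all 69 arrays, and that of Serpina1e depends on the group, with 25457 in control males and 1581 in Rapa females. Where a gene has several probes they are lettered here from the brightest down. Since quantile normalization gives each rank the same value on every array, differences of probes at the top of the ranking are compressed, and the files carry no mark of saturation.

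In Rapa females 9 member probes fell and 1 rose against control females, with the heavy chain Itih2, 1 probe of Itih4, the alpha-1-antitrypsin genes Serpina1a and Serpina1e, antithrombin (Serpinc1) and heparin cofactor II (Serpind1) among those that fell. These 10 of 34 probes, of 8 genes, compare with 38.4% of all tested probes called in that comparison (20% higher and 18.5% lower). An unadjusted p under 0.05 was reached by 17. Among heavy chains 3 of 7 probes were called, and among serpins 7 of 27. The median difference of the members was -0.01, against 0.03 for all tested probes. The share of members called, 29.4%, was below the share of all tested probes. With median scaling, which moved the median of all tested probes downward, 18 of the 34 were called, all lower. The share of all tested probes called under that scaling is not given here, so the count describes the members alone.

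In Rapa-2 males 11 member probes of 9 genes were called, 2 higher and 9 lower, where 36.3% of all tested probes were called (20.9% higher and 15.4% lower). In 5 of the 34 the signals of Rapa-2 and control males did not overlap, against 11.6% of all tested probes. Of the 11 calls, 5 remained in number with the raw median of each array as covariate, and 7 with control males of the lower animal numbers alone. Raw medians ran from 84 to 96.8 in Rapa-2 males and from 113.8 to 146 in control males. With no overlap, that covariate cannot be parted from the group. In Rapa-1 males 0 member probes were called by limma, 9 had an unadjusted p under 0.05, and 0.378% of all tested probes were called; 1 was called, Serpinf1 at -0.21, when runs of animal numbers entered as a random block. With all 13 Rapa males in 1 group, 1 probe was called, Itih2, and 9 had an unadjusted p under 0.05, where 10.6% of all tested probes were called (3.06% higher and 7.52% lower). The difference between diets itself differed between the sexes for 4 member probes, 1 more positive in females and 3 more negative, where 20.4% of all tested probes passed that test, 11.2% and 9.27% by direction (11 members at an unadjusted p under 0.05).

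The sexes differed more widely. Between control females and control males 17 member probes of 12 genes were called, 8 higher and 9 lower in females, where 35.6% of all tested probes were called (19.5% higher and 16.1% lower). The median size of the difference was 0.29 among members and 0.15 among all tested probes. Higher in females were Itih3, Itih4, corticosteroid-binding globulin (Serpina6) and alpha-2-antiplasmin (Serpinf2), and lower were Itih2, Itih1, vaspin (Serpina12), thyroxine-binding globulin (Serpina7), Serpina1b, Serpina1e and Serpina4-ps1. Serpina1a was called in both directions by its 2 probes.

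**Figure D1:**
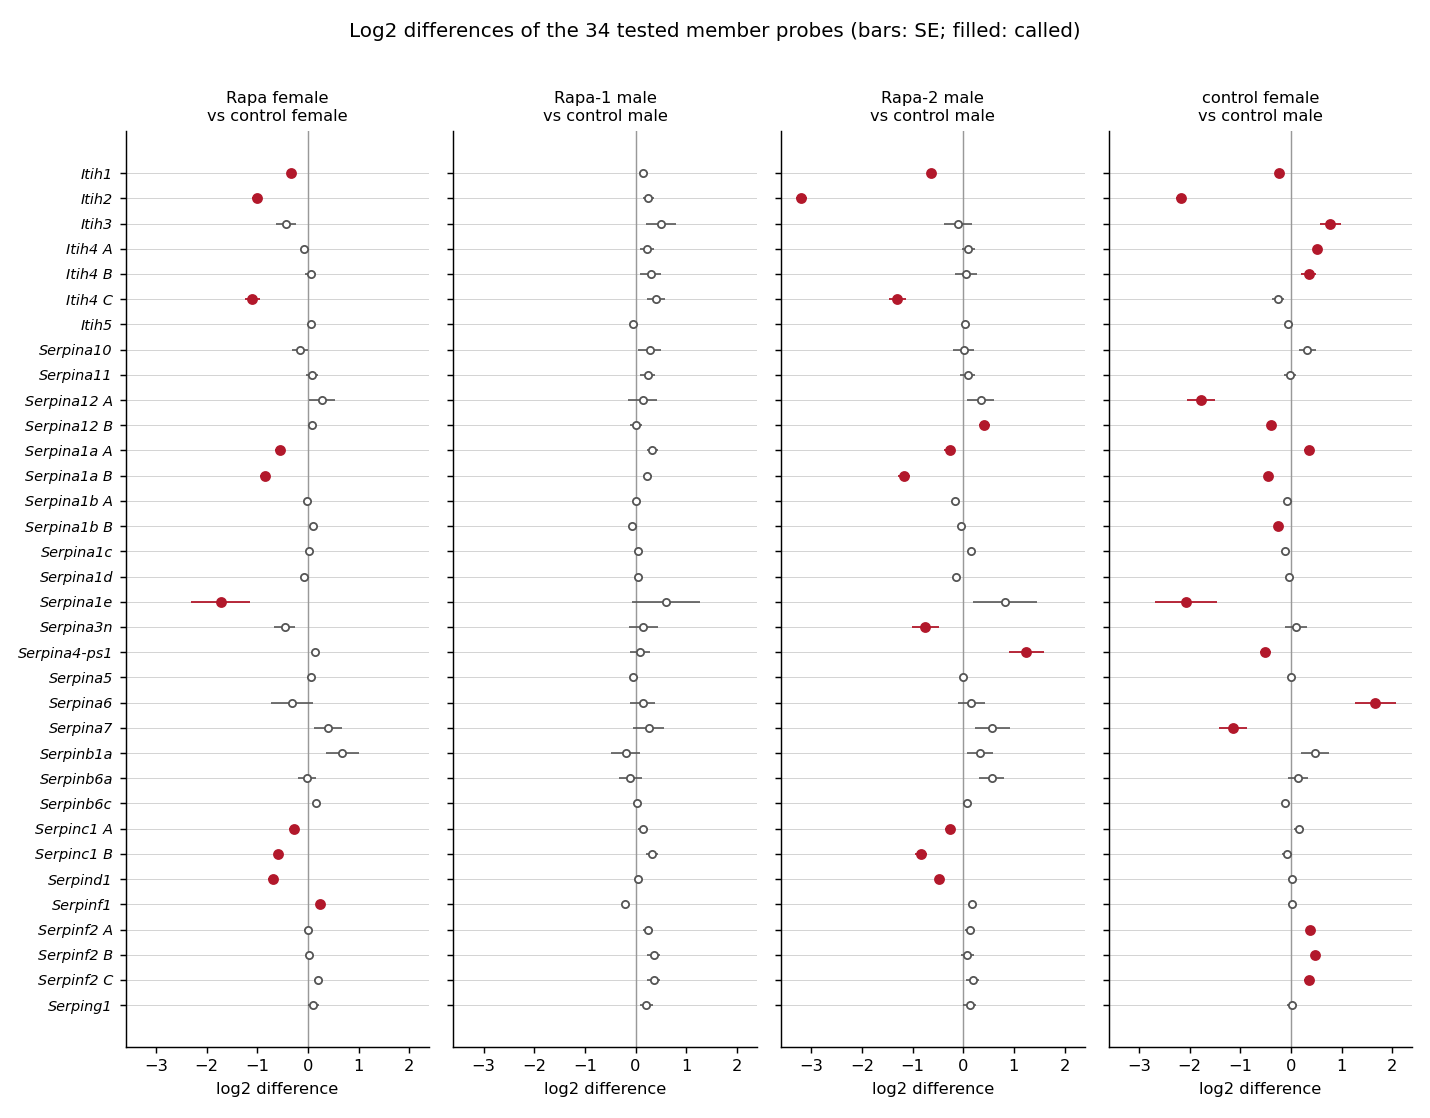
Log2 differences (x axis) of the tested member probes in 4 comparisons, with bars for the SE and filled points for called differences. Itih2 lies at -1.01 in Rapa females, -3.19 in Rapa-2 males and -2.17 in control females against control males, while no filled point appears for Rapa-1 males. Serpinf1, at 0.25 in Rapa females, turns to -0.090 under median scaling.

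Itih2 (chr2:10094591-10130683, GRCm38.p6) encodes heavy chain 2, and had the clearest division of the groups. Its signal ranged from 11.85 to 12.87 in control males (median 12.29, n = 19), from 12.19 to 12.86 in Rapa-1 males (12.62, n = 7), from 8.72 to 9.50 in Rapa-2 males (9.07, n = 6), from 9.63 to 10.69 in control females (10.17, n = 16) and from 8.76 to 9.86 in Rapa females (9.08, n = 21). Every control and Rapa-1 male lay above every female, and every Rapa-2 male lay below all control females and all other males. Rapa-2 males and Rapa females covered nearly the same range, with means of 9.12 ± 0.27 and 9.13 ± 0.28.

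Itih2 fell by 3.19 ± 0.11 in Rapa-2 males (9.16-fold, adjusted p = 3.24e-18) and by 1.01 ± 0.10 in Rapa females (2.02-fold, adjusted p = 1.44e-10, 21 of 21 mice below the control mean and 19 below the lowest control). Control females were 4.51-fold below control males, a difference of -2.17 ± 0.09 (adjusted p = 8.56e-21), and it was the 1 member probe without overlap between those groups, as were 5.51% of all tested probes. In Rapa-1 males the difference was 0.25 and was not called. With the Rapa males together it was -1.34 ± 0.40 (adjusted p = 0.0215), with 7 of 13 mice below the control mean, and this value was 0.039 once the raw median of each array was a covariate. Raw medians also separate Rapa-1 males (116.8 to 130.8) from Rapa-2 males (84 to 96.8), so that covariate cannot be parted from their split. The interaction of diet and sex for Itih2 was 0.33 with all Rapa males and was not called, 2.18 without Rapa-1 males and -1.26 without Rapa-2 males. The calls in Rapa females, in Rapa-2 males and between the control sexes were kept under all alternatives run, with differences from -1.45 to -0.65, from -3.39 to -3.19 and from -2.39 to -1.90.

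Itih4 encodes the heavy chain without bikunin, and lies beside Itih3 and Itih1 on chromosome 14 (chr14:30886476-30901986, chr14:30908572-30923787 and chr14:30929180-30943289). Its 3 tested probes did not move alike. Probe C ranged from 12.24 to 13.65 in control males (median 13.05), from 12.82 to 13.85 in Rapa-1 males (13.44), from 11.50 to 12.01 in Rapa-2 males (11.60), from 12.16 to 13.23 in control females (12.79) and from 10.95 to 12.59 in Rapa females (11.44). Probe A ranged from 13.82 to 14.93 in control males (14.23), from 14.03 to 14.90 in Rapa-1 males (14.54), from 14.19 to 14.65 in Rapa-2 males (14.36), from 14.46 to 15.15 in control females (14.82) and from 14.44 to 15.06 in Rapa females (14.72). Rapa-2 males were below all control males in probe C and within their range in probe A.

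Probe C of Itih4 fell by 1.10 ± 0.15 in Rapa females (adjusted p = 6.95e-08, 21 of 21 mice below the control mean) and by 1.30 ± 0.17 in Rapa-2 males (adjusted p = 4.14e-07, no overlap). The differences in Rapa females were -0.08 for probe A and 0.06 for probe B, neither called, and probe A was 0.10 higher in Rapa-2 males, also not called. Between the control sexes probes A and B were called higher in females, by 0.52 ± 0.09 (adjusted p = 8.58e-06) and 0.35 ± 0.14 (adjusted p = 0.0384), while probe C gave -0.25 and was not called. A fall of Itih4 in Rapa mice therefore rests on 1 of its 3 probes. Which transcripts each probe reads was not tested. Probe B ranged from 12.61 to 14.22 in control males (median 13.35), 13.12 to 14.23 in Rapa-1 males (13.81), 13.18 to 14.12 in Rapa-2 males (13.41), 13.19 to 14.20 in control females (13.93) and 13.28 to 14.54 in Rapa females (13.82), so all groups overlapped.

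Itih1, which encodes heavy chain 1, fell by 0.33 ± 0.08 in Rapa females (adjusted p = 0.00107) and by 0.64 ± 0.08 in Rapa-2 males (adjusted p = 4.90e-07), where its 6 signals, from 12.88 to 13.17, lay below the lowest control male at 13.40. Control females were 0.23 ± 0.07 below control males (adjusted p = 0.00381). With control females of the lower animal numbers alone the difference in Rapa females was -0.25 and was not called. Itih3, which encodes heavy chain 3, was 0.78 ± 0.21 higher in control females than in control males (adjusted p = 0.00225), and 0.56 and not called with control arrays of the higher animal numbers alone. In Rapa females it gave -0.44, not called. Itih5 was detected on 43 arrays, near background, and was called in no comparison.

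Few partners that build and receive the heavy chains could be tested. Of 10 genes listed for assembly with bikunin and hyaluronan, 2 were tested, and 0 were called in Rapa females. Ambp, the precursor of bikunin, gave -0.06 in Rapa females, -0.02 in Rapa-2 males and 0.04 between the control sexes, none of them called. Cd44, a hyaluronan receptor, was called higher in Rapa-2 males by 0.42, with -0.04 at its other probe, and higher in control females than in control males by 0.36, with 0.0026 at the other probe.

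**Figure D2:**
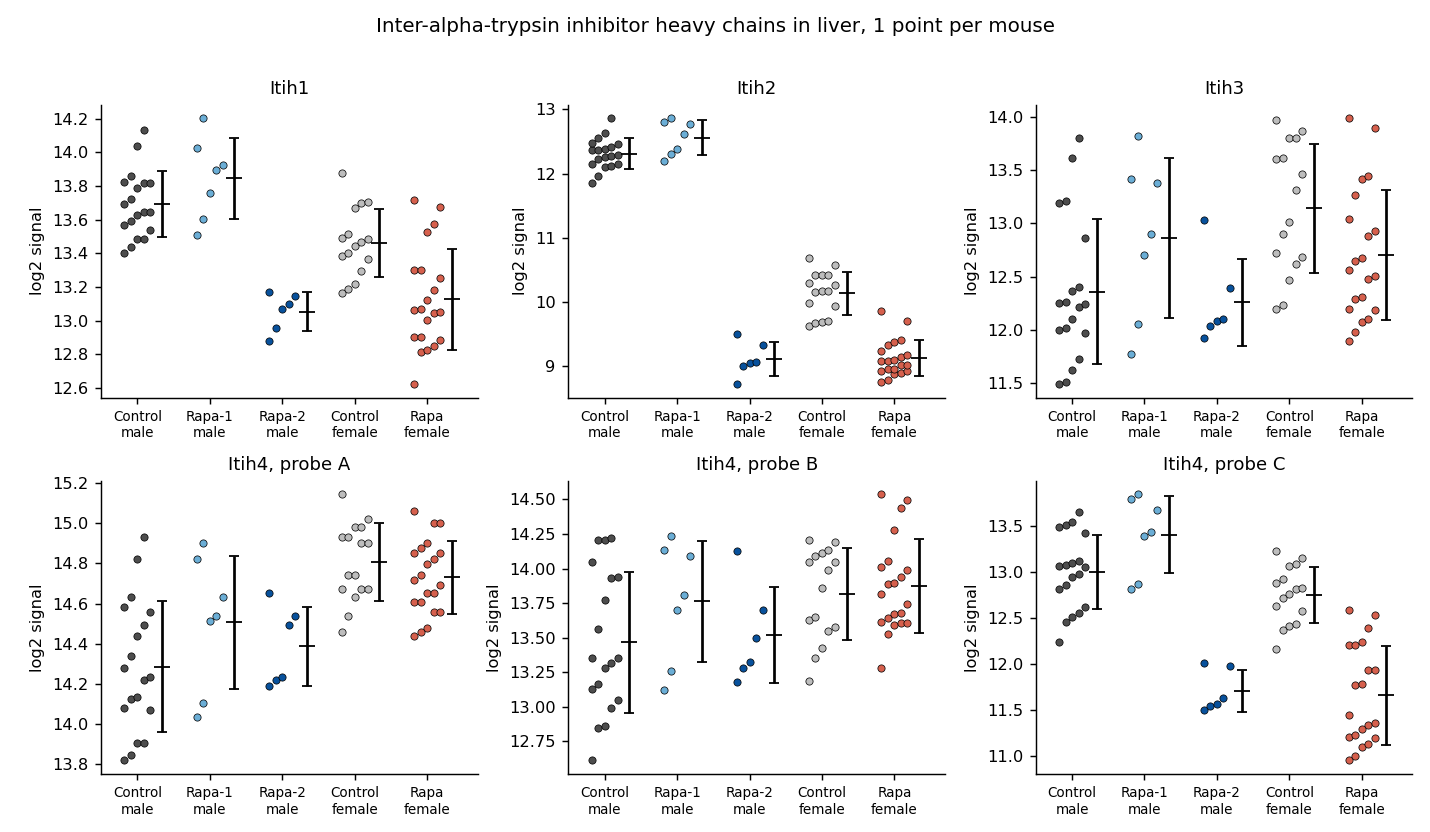
Log2 signal (y axis, scales differ) of heavy chain probes in each mouse of the 5 groups, with the mean and SD at the side. Rapa-2 males and Rapa females share the lowest Itih2 signals, near 9.1, and in Itih4 the same groups are low for probe C but not for probe A.

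The alpha-1-antitrypsin genes are mouse counterparts of a single human gene, whose product inhibits neutrophil elastase. In mice of this strain 5 of them, Serpina1a to Serpina1e, were tested and lie on chromosome 12 in one block, where 15 member genes were placed between chr12:103616675-104414334. They are so alike that a probe may read transcripts of several, and each value below is that of a probe and may hold signal from paralogs. Their kinship can be read in their promoters, shown here beside probes that did not all move alike between groups. The windows of 116 bases near the start sites (RefSeq, GRCm38.p6, minus strand) are Serpina1a at chr12:103863621-103863736, Serpina1b at chr12:103738196-103738311, Serpina1c at chr12:103904958-103905073, Serpina1d at chr12:103773630-103773745 and Serpina1e at chr12:103956956-103957071. Capitals mark the run of 59 bases that all 5 share.
Serpina1a: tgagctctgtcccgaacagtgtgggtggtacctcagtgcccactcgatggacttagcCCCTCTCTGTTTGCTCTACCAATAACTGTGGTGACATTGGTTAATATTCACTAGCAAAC
Serpina1b: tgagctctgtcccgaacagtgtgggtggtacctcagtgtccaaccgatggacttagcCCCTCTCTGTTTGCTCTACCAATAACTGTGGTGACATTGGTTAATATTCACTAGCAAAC
Serpina1c: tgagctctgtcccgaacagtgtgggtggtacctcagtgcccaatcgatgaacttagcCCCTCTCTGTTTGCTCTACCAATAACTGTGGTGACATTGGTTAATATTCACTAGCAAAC
Serpina1d: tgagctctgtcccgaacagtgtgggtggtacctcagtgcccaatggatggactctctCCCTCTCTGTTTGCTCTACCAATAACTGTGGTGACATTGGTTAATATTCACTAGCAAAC
Serpina1e: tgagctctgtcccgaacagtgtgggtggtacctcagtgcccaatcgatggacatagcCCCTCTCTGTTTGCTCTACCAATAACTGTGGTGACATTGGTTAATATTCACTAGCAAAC

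Among the promoters searched, these 5 genes alone held that run, and any pair of the windows differed at 2 to 7 of 116 bases. All 5 hold GTTAAT, the first letters of the site of the hepatocyte factor HNF1, which was present in 7 of 21 member genes with a promoter and in 7.099% of 32851 promoters of 300 bases, both strands searched. The C/EBP motif TTGCNNAA was in 9 of 21 member genes and in 10.797% of all promoters. The member genes included Itih2, Serpina12, Serpina7, Serpinc1 and the Serpina1 genes a, b, d and e. Member counts are of genes with a match in any promoter entered for them, and percentages are of single promoters, so the measures differ. The full HNF1 site was in 0 of 21 member genes and in 3 of 32851 promoters. Of the 7 member genes with its first letters, 5 are the Serpina1 paralogs, whose match lies in the run they share. Those 5 are therefore not separate cases. The STAT motif TTCNNNGAA was in 3 of 21 and in 8.298% of all, Itih4 being one. Such a match describes letters and not a site in use. The 100 bases before the start are shown for the 2 heavy chain genes whose probes fell most, with the match in capitals: TTGAGCAA, which reads TTGCNNAA on the opposite strand, in Itih2 (chr2:10130684-10130783, minus strand), and TTCCGAGAA in Itih4 (chr14:30886376-30886475, plus strand).
Itih2: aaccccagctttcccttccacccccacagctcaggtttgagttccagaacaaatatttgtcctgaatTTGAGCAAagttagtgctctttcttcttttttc
Itih4: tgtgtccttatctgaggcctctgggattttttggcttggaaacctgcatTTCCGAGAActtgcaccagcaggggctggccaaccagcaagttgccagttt

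Serpina1a is 1 of the 2 paralogs called in Rapa females, and both of its probes fell. Probe B ranged from 12.25 to 13.34 in control females (median 12.81) and from 11.33 to 12.46 in Rapa females (11.93), with 16 of 21 Rapa females below the lowest control. In males it ranged from 12.98 to 13.72 in controls (13.27), from 13.15 to 13.78 in Rapa-1 (13.55) and from 11.75 to 12.60 in Rapa-2 (12.01). Rapa-2 males were thus below all control males and overlapped Rapa females, with the highest Rapa-2 male just above all of them. The difference was -0.86 ± 0.09 in Rapa females (adjusted p = 1.41e-09) and -1.16 ± 0.12 in Rapa-2 males (adjusted p = 3.75e-09).

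Probe A of Serpina1a ranged from 12.72 to 13.74 in control females (median 13.21), from 11.69 to 13.18 in Rapa females (12.67), from 12.37 to 13.34 in control males (12.78), from 12.84 to 13.51 in Rapa-1 males (12.96) and from 12.34 to 12.78 in Rapa-2 males (12.50). It fell by 0.56 ± 0.10 in Rapa females (adjusted p = 1.34e-05) and by 0.27 ± 0.11 in Rapa-2 males (adjusted p = 0.0399), a call lost with control males of the lower animal numbers alone (-0.14). The probes went opposite ways between the control sexes, at 0.35 ± 0.09 for probe A (adjusted p = 0.00142) and -0.45 ± 0.08 for probe B (adjusted p = 2.13e-05), so no direction can be given for the gene. The effect of the diet differed between the sexes for probe A, at -0.56 in females and 0.05 in males (interaction -0.61 ± 0.15, adjusted p = 0.00294). Without Rapa-1 males this interaction was -0.29 and was not called.

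Serpina1e had the widest spread between mice of all members in 4 of the 5 groups. Most of its signals lay in a low or a high range. Control males ranged from 10.16 to 15.18 (median 14.16), Rapa-1 males from 10.61 to 15.36 (14.85), Rapa-2 males from 13.76 to 15.36 (14.41), control females from 8.52 to 14.28 (10.55) and Rapa females from 8.22 to 13.80 (9.24). By limits set after the values were seen, 14 of 19 control males, 6 of 7 Rapa-1 males, 6 of 6 Rapa-2 males, 7 of 16 control females and 2 of 21 Rapa females were above 13. Below 11 were 2, 1, 0, 9 and 16 mice of the same groups. Between those limits were 3, 0, 0, 0 and 3 mice.

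The Serpina1e difference was -1.73 ± 0.59 in Rapa females (adjusted p = 0.0127, 19 of 21 mice below the control mean) and -2.07 ± 0.61 between control females and control males (adjusted p = 0.00429). In all Rapa males it was 0.71, and the interaction was -2.43 ± 0.81 (adjusted p = 0.0264). With each array's detected share as covariate the difference in Rapa females was -0.53 and was not called; detection averaged 43.6% of probes in control females and 39.9% in Rapa females. With control females of the higher animal numbers alone it was -1.48, and between the sexes with the lower numbers alone -1.50, neither called.

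The brightest Serpina1 probes stayed within a narrow band. Serpina1b probe A averaged 15.30 ± 0.07 in control males, 15.31 ± 0.10 in Rapa-1 males, 15.14 ± 0.05 in Rapa-2 males, 15.22 ± 0.09 in control females and 15.20 ± 0.06 in Rapa females, and was called in no comparison. Serpina1c averaged 15.11 ± 0.12, 15.16 ± 0.11, 15.25 ± 0.11, 14.98 ± 0.16 and 15.01 ± 0.12 in the same order, and Serpina1d 15.19 ± 0.04, 15.25 ± 0.09, 15.05 ± 0.03, 15.15 ± 0.09 and 15.07 ± 0.11. Neither was called. Serpina1b probe B was 0.25 ± 0.05 below control males in control females (adjusted p = 2.90e-05), with means of 15.04 ± 0.16 and 15.29 ± 0.11 in females and males. Its mean was 15.22 ± 0.16 in Rapa-1 males, 15.24 ± 0.08 in the Rapa-2 males and 15.15 ± 0.19 in Rapa females. The high rank of these probes compresses their differences, as described above.

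**Figure D3:**
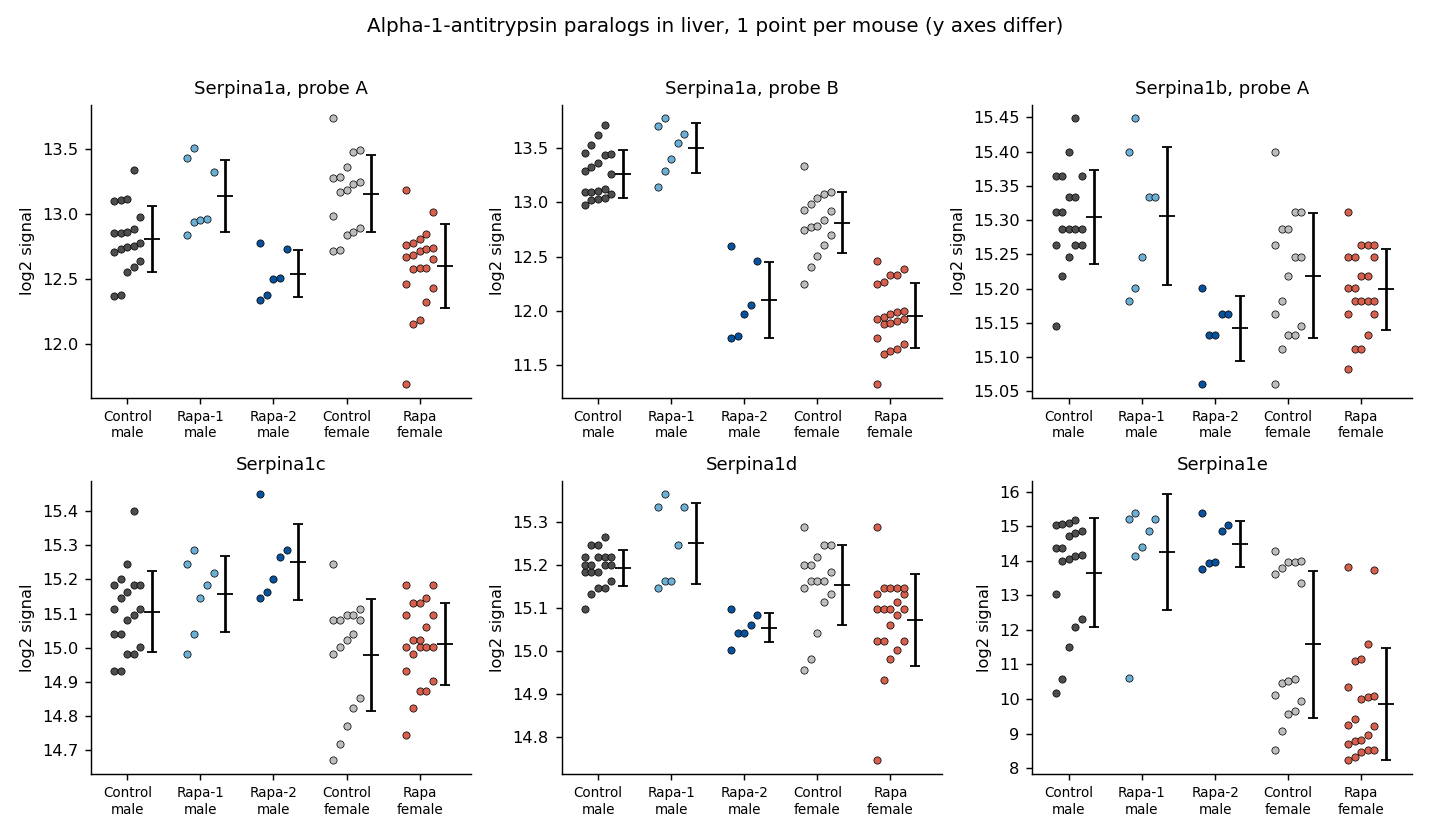
Log2 signal (y axis, scales differ) of 6 probes of the alpha-1-antitrypsin paralogs in each mouse of the 5 groups, with the mean and SD at the side. Serpina1b, Serpina1c and Serpina1d stay near 15, Serpina1a probe B is lowest in Rapa-2 males and Rapa females, and Serpina1e falls into a low and a high range, with 2 of 21 Rapa females above 13.

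Serpina3n, a mouse antichymotrypsin that inhibits cathepsin G and granzyme B, is a gene of the acute phase response to inflammation. It ranged from 12.62 to 14.82 in control males (median 13.13), from 12.18 to 14.44 in Rapa-1 males (13.50), from 11.91 to 13.43 in Rapa-2 males (12.50), from 12.38 to 14.46 in control females (13.47) and from 12.12 to 14.42 in Rapa females (12.76). The groups overlapped widely. It was -0.75 ± 0.26 in Rapa-2 males (adjusted p = 0.0211, 5 of 6 mice below the control mean, not called with control males of the lower animal numbers alone) and -0.46 in Rapa females, which was not called.

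Mice with high Serpina3n had high signals of Lcn2 (lipocalin 2, an iron-sequestering acute phase protein) and of the heavy chain Itih3, in each group with more than 6 mice. Pearson's r with Itih3 was 0.92 in control males (Spearman's rho 0.77), 0.98 in Rapa-1 males (0.96), 0.95 in control females (0.92) and 0.96 in Rapa females (0.90), each with a permutation p adjusted over 20 relations of at most 0.00132. Without the 2 mice farthest from the median of Serpina3n, r was 0.84, 0.95, 0.96 and 0.93. With Lcn2, r was 0.88 (rho 0.68), 0.95 (0.96), 0.95 (0.94) and 0.95 (0.96) in the same order, and 0.80, 0.92, 0.94 and 0.92 without those mice. Adjusted permutation p-values were at most 0.0017. Lcn2 had a gap in control mice, from 11.24 to 12.91 in males and from 11.93 to 14.15 in females, and in Rapa-1 males, from 9.62 to 12.12. There r spans a low and a high range of Lcn2, and the relation within each range was not tested.

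With probe A of Itih4, r was 0.82 in control males (rho 0.74), 0.93 in Rapa-1 males (0.96), 0.53 in control females (0.48) and 0.83 in Rapa females (0.84), with adjusted permutation p of 5e-05, 0.0017, 0.0394 and 5e-05 for r. For rho in control females it was 0.0753. Over all 20 relations 17 passed by r and 15 by rho. Those with Saa1, which fell into a low and a high range, are counted among the 20. The smallest p that 100000 resamples gave was 2e-05, 5e-05 when adjusted. Leaving out the 2 farthest mice gave 0.81, 0.84, 0.47 and 0.80. In the 6 Rapa-2 males r was 0.88 with Itih3 (rho 0.66, exact permutation p adjusted 0.0394 for r and 0.206 for rho), 0.73 with Lcn2 and 0.71 with Itih4, and fell to 0.74, -0.33 and 0.06 without the 2 farthest mice. In Rapa-2 males the relations with Lcn2 and Itih4 thus rested on those mice, and an r of 6 mice is the whole basis for Itih3. Within the lower and the higher run of control animal numbers r with Itih3 was 0.87 and 0.95 in males and 0.94 and 0.98 in females, with Lcn2 0.86 and 0.91 in males and 0.93 and 0.98 in females, and with Itih4 0.93 and 0.78 in males and 0.66 and 0.43 in females.

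Saa1, a major acute phase apolipoprotein, fell into a low and a high range, and no r is given over both. By limits set after the values were seen, 13 of 19 control males, 3 of 7 Rapa-1 males, 5 of 6 Rapa-2 males, 7 of 16 control females and 16 of 21 Rapa females were below 9 in Saa1, and 4, 3, 1, 7 and 4 were above 10. The mice above 10 had Serpina3n signals of at least 13.35, 14.09, 13.43, 13.57 and 13.55 in those groups, and the mice below 9 had at most 13.32, 13.09, 12.85, 13.37 and 13.49, and 2, 1, 0, 2 and 1 mice between the limits are left aside. These limits decide how the Serpina3n ranges meet. Among the mice below 9, r of Serpina3n with Saa1 was 0.03 in control males (n = 13), 0.06 in control females (n = 7) and 0.41 in Rapa females (n = 16). These values are descriptions, with no test.

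**Figure D4:**
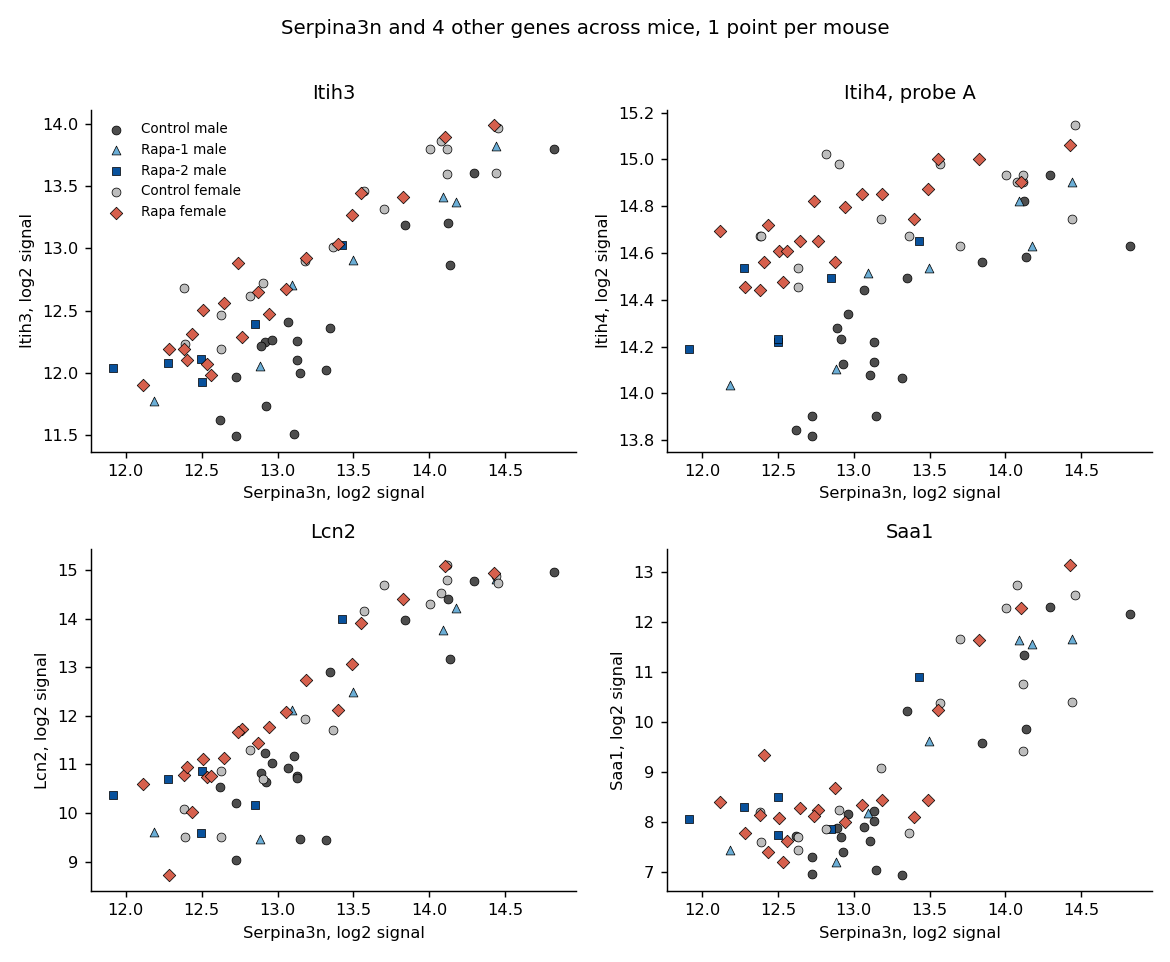
Log2 signals of Serpina3n (x axis) against those of Saa1, Lcn2, Itih3 and Itih4 probe A (y axes) in each of 69 mice, coloured by group. The points for Itih3 follow a rising band in the 4 groups of over 6 mice (r of 0.92 to 0.98). Those for Lcn2 also rise, with a gap between low and high signals in control mice and in Rapa-1 males. Saa1 stays below 9 in most mice whose Serpina3n is under 13.3.

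Of the listed acute phase genes a part was lower in Rapa females and in Rapa-2 males. Of 16 tested, 5 fell and 0 rose in Rapa females (18.5% of all tested probes were lower), among them Apcs (serum amyloid P) by -1.19, Saa4 by -0.73, Cp (ceruloplasmin) by -0.60 and Crp by -0.51, with a median of -0.54 against 0.03 over all tested probes. In Rapa-2 males 4 fell and 0 rose (15.4% of all tested probes were lower), Apcs by -1.72 and Saa4 by -1.04 among them, with a list median of -0.18 against 0.09. In Rapa-1 males only the fibrinogen chain Fgg was called, at 0.42, with a list median of 0.47 against 0.00. In all Rapa males 0 were called and the median was 0.13 against 0.03. Of 10 tested neutrophil markers, 7 were lower in Rapa females than in control females (18.5% of all tested probes were), and 7 were higher in those same control females than in control males (19.5% of all). Both counts use the same 16 control females, so they are not separate evidence. Their summed normalized signal (linear scale) ranged from 1529 to 54079 (median 3649) in control males, 1734 to 32119 (7736) in Rapa-1 males, 1769 to 18399 (2801) in Rapa-2 males, 1999.59 to 96003 (17764) in control females and 1461 to 62993 (4448) in Rapa females. Lcn2 is on that list too, and Cxcr2, the 11th gene of it, was not tested. The part of neutrophil RNA in the differences of Serpina3n, Itih3 and the other members was not tested.

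Corticosteroid-binding globulin and thyroxine-binding globulin, serpins that carry hormones and inhibit no protease, differed between the sexes in opposite directions. Serpina6 ranged from 8.26 to 11.06 in control males (median 10.56), 9.76 to 11.38 in Rapa-1 males (10.56), 9.82 to 11.35 in Rapa-2 males (10.63), 7.97 to 14.49 in control females (12.44) and 9.96 to 13.75 in Rapa females (11.93). Control females held both the lowest and the highest signals of all groups. Serpina6 was 1.66 ± 0.40 higher in control females than in control males (adjusted p = 0.000760, 14 of 16 mice above the male mean). With control animals of the lower numbers alone this was 0.63 and was not called, and with those of the higher numbers alone it was 2.59.

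Serpina7 (chromosome X) ranged from 8.61 to 11.77 in control males (median 10.88), 10.34 to 11.50 in Rapa-1 males (11.44), 9.85 to 12.02 in Rapa-2 males (11.75), 7.62 to 11.09 in control females (9.70) and 9.06 to 12.38 in Rapa females (9.91). Control females were 1.14 ± 0.27 below control males (adjusted p = 0.000652, 15 of 16 mice below the male mean), and -0.63 and not called with the lower numbers alone. Neither carrier was called in any diet comparison. Against control females of the higher numbers alone, however, Rapa females were called at -1.07 for Serpina6 and 0.83 for Serpina7.

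Vaspin, an adipokine serpin that inhibits kallikrein 7, was lower in females on the control diet at both of its probes. Probe A of Serpina12 ranged from 10.30 to 12.93 in control males (median 12.32), 10.84 to 12.98 in Rapa-1 males (12.32), 11.99 to 12.63 in Rapa-2 males (12.58), 8.16 to 11.72 in control females (10.56) and 9.43 to 11.63 in Rapa females (10.69). All 16 control females lay below the male mean, a difference of -1.77 ± 0.28 (adjusted p = 2.03e-06), which was -0.74 and not called once the raw median was a covariate. Probe B, near background and detected on 44 arrays, was also lower, by -0.39 ± 0.07 (adjusted p = 2.89e-05). In Rapa-2 males probe B was 0.42 ± 0.11 higher than in control males (adjusted p = 0.00303), and probe A gave 0.34, not called.

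Heparin cofactor II and antithrombin, inhibitors of clotting that heparin activates, fell in Rapa females and in Rapa-2 males. They were called neither in Rapa-1 males nor in all Rapa males. The member Serpina5, weak near background, gave 0.06 in Rapa females and -0.01 in Rapa-2 males, neither called. Heparin cofactor II, an inhibitor of thrombin (Serpind1, chr16:17331371-17343574), ranged from 11.10 to 12.22 in control females (median 11.63) and from 10.64 to 11.36 in Rapa females (11.00). In males it ranged from 11.44 to 12.08 in controls (11.66), 11.61 to 11.95 in Rapa-1 (11.69) and 10.96 to 11.45 in Rapa-2 (11.20). All 21 Rapa females were below the control mean, and Rapa-2 males met control males only at their upper end. The difference was -0.69 ± 0.09 in Rapa females (adjusted p = 4.75e-08), kept under all alternatives run, and -0.47 ± 0.08 in Rapa-2 males (adjusted p = 2.20e-05). With all Rapa males it was -0.19, and the interaction was -0.51 ± 0.13 (adjusted p = 0.00324), but -0.22 and not called without Rapa-1 males.

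Antithrombin (Serpinc1, chr1:160978583-161002543), the main inhibitor of thrombin and factor Xa, was read by a pair of probes that moved the same way. Probe B ranged from 7.69 to 8.84 in control females (median 8.27) and 7.46 to 7.89 in Rapa females (7.78), and from 7.84 to 8.84 in control males (8.42) and 7.29 to 7.66 in Rapa-2 males (7.57). Rapa-2 males lay below all control males. The difference of probe B was -0.58 ± 0.07 in Rapa females (adjusted p = 2.78e-08) and -0.84 ± 0.12 in Rapa-2 males (adjusted p = 3.87e-06), the latter -0.49 and not called once the raw median was a covariate. Probe A gave -0.28 ± 0.10 (adjusted p = 0.0135) and -0.26 ± 0.10 (adjusted p = 0.0311), and with controls of the lower numbers alone -0.06 and -0.15, not called. In Rapa-1 males probe B gave 0.32 and probe A 0.15, and in all Rapa males -0.21 and -0.04, none of them called.

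**Figure D5:**
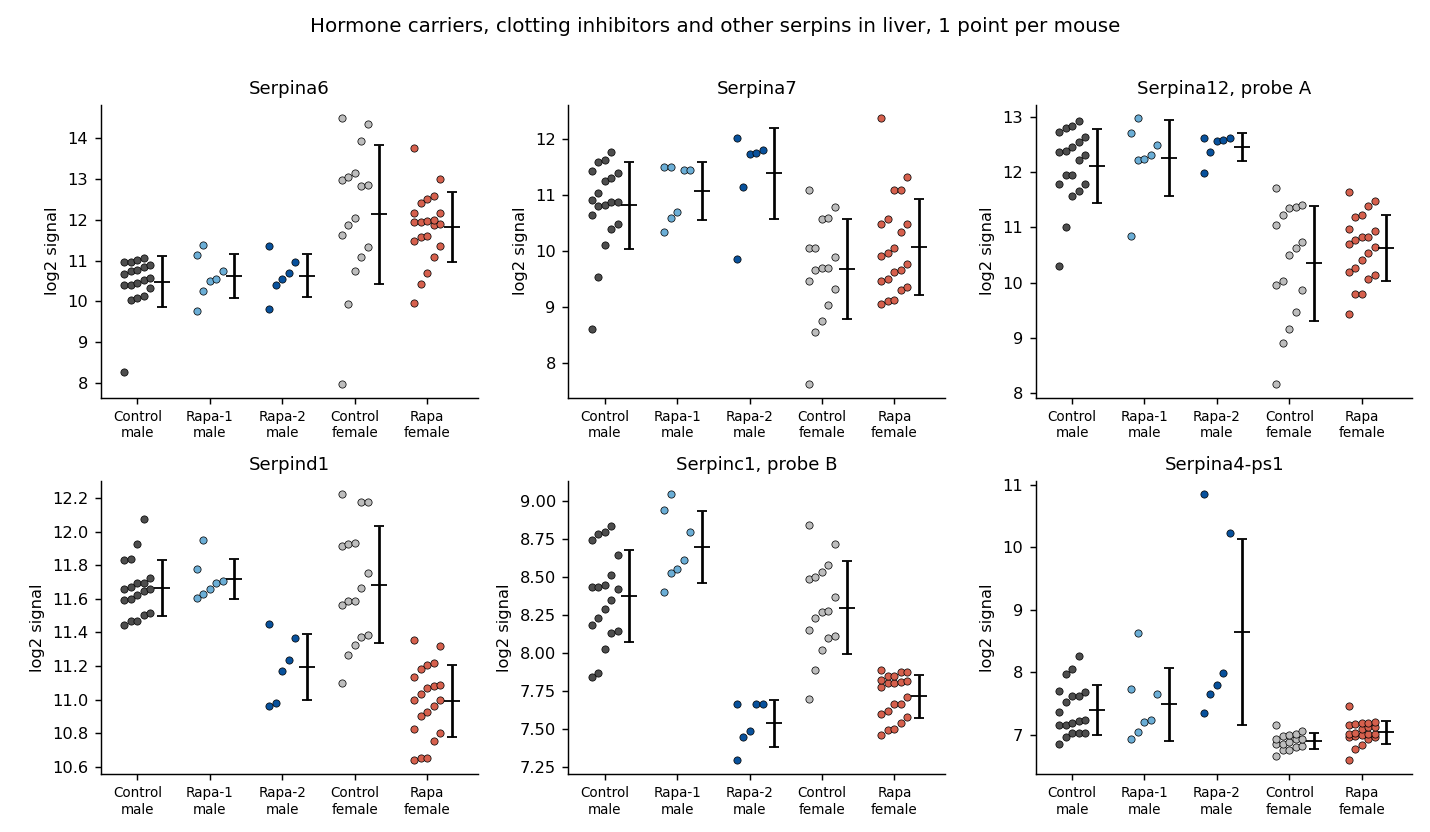
Log2 signal (y axis, scales differ) of 6 serpin probes in each mouse of the 5 groups, with the mean and SD at the side. Serpind1 and Serpinc1 probe B are low in Rapa-2 males and Rapa females, Serpina12 probe A is lower and Serpina6 wider and higher in females, and 2 Rapa-2 males stand alone in Serpina4-ps1, at 10.23 and 10.85.

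Of the other inhibitors of plasma cascades, alpha-2-antiplasmin (Serpinf2), which blocks plasmin, was higher in control females than in control males at all 3 probes, by 0.37 (adjusted p = 1.22e-04), 0.49 (adjusted p = 2.15e-05) and 0.36 (adjusted p = 0.00129) for A, B and C. It was not called in any diet comparison. The C1 inhibitor (Serping1), of complement and the contact system, and Serpina10, the protein Z-dependent inhibitor of factor Xa, were called in no comparison.

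Serpinf1 encodes PEDF, a secreted serpin that acts on vessels and inhibits no protease. It ranged from 13.65 to 14.56 in control females (median 14.18), 14.09 to 14.67 in Rapa females (14.42), 13.77 to 14.28 in control males (14.15), 13.76 to 14.09 in Rapa-1 males (13.88) and 13.96 to 14.51 in Rapa-2 males (14.32). It was the 1 member higher in Rapa females, by 0.25 ± 0.07 (adjusted p = 0.00336, 19 of 21 mice above the control mean), but -0.090 under median scaling, where the median of all tested probes was -0.20, and -0.042 with the detected share as covariate. The interaction was 0.28 ± 0.10 (adjusted p = 0.0371; 0.25 in females and -0.03 in males), and turned to -0.071 under median scaling.

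Serpina4-ps1, a pseudogene of the kallistatin gene, was detected on 55 arrays at weak signal. It ranged from 6.85 to 8.26 in control males (median 7.24), 6.94 to 8.63 in Rapa-1 males (7.24), 7.35 to 10.85 in Rapa-2 males (7.89), 6.65 to 7.16 in control females (6.90) and 6.59 to 7.46 in Rapa females (7.01). In Rapa-2 males 2 of 6 mice, at 10.23 and 10.85, carried the higher mean, and the others were at or below 7.99. The difference of 1.24 ± 0.35 (adjusted p = 0.00455) was not called with the raw median as covariate (0.95) or with control males of the lower numbers alone (1.34). Control females were 0.50 ± 0.10 below control males (adjusted p = 8.08e-05, 16 of 16 mice below the male mean).

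Clade B serpins, the intracellular members, were mostly below detection here. Of their 29 probes, 3 were tested: Serpinb1a, an inhibitor of neutrophil proteases, Serpinb6a and Serpinb6c. Serpinb1a averaged 8.17 in control females and 8.86 in Rapa females, a difference of 0.68 that was not called, while the neutrophil markers were lower. Serpinb6c was detected on 5 control male, 3 Rapa-1, 3 Rapa-2, 0 control female and 2 Rapa female arrays. Of the 34 member probes not tested, 30 were detected on no array, Serpina9, Serpinb2, Serpini1 and Serpini2 among their genes. Serpinh1, the collagen chaperone Hsp47, was detected on 8 arrays, and Serpina3b, Serpinb12 and Serpinb6b on 1, 2 and 2. These transcripts were below detection on the arrays, which does not show that they were absent.

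Most members varied more from mouse to mouse than the median tested probe. The comparison is with all tested probes and not with probes of like signal. The median SD of the 34 probes was 0.29 in control males, 0.27 in Rapa-1 males, 0.24 in Rapa-2 males, 0.30 in control females and 0.27 in Rapa females, where the median of all tested probes was 0.14, 0.14, 0.13, 0.19 and 0.17. In those groups 26, 26, 26, 25 and 27 of the 34 were above the median of all, and 10, 10, 7, 8 and 10 were among the widest 5%. Serpina1e was the widest in each group but Rapa-2 males, where Serpina4-ps1 was (SD 1.5). At the other end, Serpina1d had an SD of 0.04 in control males and 0.03 in Rapa-2 males.

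Proteases that serpins trap, of coagulation, fibrinolysis, complement and neutrophils, are given beside the shares of all tested probes called. Of 18 tested, 1 rose and 3 fell in Rapa females, where 20% of all tested probes were higher and 18.5% lower. These were F10 (factor X) at 0.31, and Ctsg (cathepsin G) at -0.89, F11 (factor XI) at -0.58 and Masp1, of the lectin pathway, at -0.51. In Rapa-2 males 1 rose and 2 fell (20.9% of all tested probes were higher and 15.4% lower). Plau (urokinase) was at 0.39, Proc (protein C) at -0.42 and F2 (prothrombin) at -0.32, although the other probe of Proc gave 0.16. Between the control sexes 7 were higher and 2 lower in females (19.5% of all tested probes were higher and 16.1% lower). Ctsg was at 0.85, Hgfac at 0.79, Masp1 at 0.52 and Plg (plasminogen) at 0.50. The median over the list was -0.04 in Rapa females, 0.05 in Rapa-2 males and 0.28 between the sexes, against 0.03, 0.09 and 0.05 over all tested probes.

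Of 14 tested other inhibitors of plasma, 0 rose and 3 fell in Rapa females (18.5% of all tested probes were lower), among them the secretory leukocyte inhibitor Slpi by -1.34 ± 0.25, Timp3 by -0.42 and Cst3 (cystatin C) by -0.37. In Rapa-2 males 0 rose and 4 fell (15.4% of all tested probes were lower). Slpi was at -1.0 there and the murinoglobulin Mug1, of the alpha-2-macroglobulin family, at -0.65. With all Rapa males Mug1 alone was called, at -0.32. Between the control sexes the difference of Mug1 was -1.47 ± 0.19, lower in females. Of the 14, 2 were higher and 3 lower there (19.5% and 16.1% of all tested probes). Of 8 tested cofactors and clearance receptors, 3 rose and 2 fell in Rapa females (20% of all tested probes were higher and 18.5% lower). Lrp1, the receptor that takes up serpin complexes, fell by 0.62 ± 0.07 in Rapa females and by 0.52 ± 0.10 in Rapa-2 males, and its chaperone Lrpap1 rose by 0.33 and 0.26.

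Markers of other liver cells are given beside the shares of all tested probes called, 20% higher and 18.5% lower in Rapa females. None of the genes on the following lists rose, and 3 of 10 endothelial, 1 of 9 stellate, 1 of 9 Kupffer and macrophage, 1 of 7 lymphocyte, 2 of 7 platelet and red cell and 0 of 3 cholangiocyte genes fell, as did 3 of 9 hepatocyte genes. Of exocrine pancreas markers 1 of 4 rose, and of adipose markers 1 of 2. In Rapa-2 males, where 20.9% of all tested probes were higher and 15.4% lower, 5 of 9 hepatocyte genes fell and 0 rose. Their median was -0.21. Of 10 endothelial genes 4 rose and 1 fell there, of 9 stellate genes 2 rose and 1 fell, and 1 Kupffer and macrophage, 1 lymphocyte and 1 cholangiocyte gene fell and 0 rose. Rapa-2 males also had the lowest median raw signal of any group, 89.0 ± 4.23 (n = 6), against 130 ± 10.6 in control males (n = 19). By the highest raw signal of any probe Rapa females were dimmer, at 37410 against 42956 in Rapa-2 males. The raw medians of Rapa-2 and control males did not overlap, so the covariate given above cannot part brightness from group. The part of array brightness in the differences of the members in Rapa-2 males was not tested.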

How the data were processed

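Total RNA of 69 livers was labelled as cRNA and hybridized by the authors, 1 array per mouse. The authors deposited non-normalized average bead signal intensities per probe, a detection score (1 minus the detection p) and processed log2 values, quantile-normalized. Log2 intensities were quantile-normalized again here and matched the authors' processed values (lowest Pearson r 0.9999178). A probe was tested at a detection p under 0.05 on at least 13 arrays. Pairs of groups were compared by limma 3.58.1, under R 4.3.3 (two-sided moderated tests, Benjamini-Hochberg over 12442 probes), and the interaction on all 69 arrays. The fits were tested on simulated data. Relations used permutation tests, exact under 10 mice. The alternatives were other backgrounds, filters, scalings, thresholds, covariates, blocks and subsets of arrays.

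Named are the genes called in Rapa females, in all Rapa males or between the control sexes; values by group are given for called log2 differences over 1, for the interaction and for the 8 brightest probes, and up to 4 genes are named per list. Members and lists were chosen with earlier results of these data known. Control animals fall into 2 runs of animal numbers (lower: 7 males, 7 females, higher: 12 males, 9 females). The runs were cut within the controls alone. By number, the lower runs (males 366 to 374, females 651 to 659) come next after the Rapa males (341 to 365) and Rapa females (626 to 649). The higher runs (males 716 to 730, females 682 to 695) lie farther off. The diets do not interleave within a sex, so number order and diet cannot be told apart. Rapa-1 males (341 to 352) and Rapa-2 males (354 to 365) do not interleave, so number order and that split cannot be told apart either. P-values of the group comparisons judge a mean difference against the spread between mice, and the number of arrays limits the precision. They do not cover what goes with number order. Promoters are from RefSeq (GRCm38.p6) and matched 21 of 26 tested genes. Serpina10, Serpina4-ps1, Serpina6, Serpinb1a and Serping1 had no entry used here.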

Additional observations from a re-analysis of the deposited data

Results flagged for a closer look

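In all, 68 combinations of a tested member probe and a group of 4 to 10 mice were examined for a single mouse far from the rest, and about 1 in 20 would stand out by chance. In Rapa-1 males the lowest mouse of Serpina12 probe A was at 10.84 with the nearest other at 12.22, the lowest of Serpina1e was at 10.61 with the nearest other at 14.13, and the highest of Serpinb1a was at 9.27 with the nearest other at 7.75.

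The effect of the diet differed between females and males, by the interaction term of limma, for Serpina1a probe A (-0.61), Serpina1e (-2.43), Serpind1 (-0.51) and Serpinf1 (0.28). Without Rapa-1 males the values were -0.29, -2.55, -0.22 and 0.066, of which Serpina1e alone remained called. Without Rapa-2 males they were -0.89, -2.32, -0.75 and 0.46, all called.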

How the results depend on the processing

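Counts of called member probes stayed within 1.5 times the main count except as follows. The shares of all tested probes called under each alternative are not given here, so these counts do not set the members against the array. With median scaling Rapa females had 18 calls against 10, all lower, and the interaction 16 against 4 (0 more positive and 16 more negative, against 1 and 3); this scaling moved the median of all tested probes from 0.03 to -0.20 and from 0.01 to -0.18. A minimum of 1.5-fold left 5 calls in Rapa females, 7 in Rapa-2 males and 6 between the control sexes. The raw array median as a covariate left 5 in Rapa-2 males and 7 between the sexes and gave 11 for the interaction, and the share of detected probes left 2 for the interaction. Raw medians did not overlap between Rapa-2 and control males. Between the control sexes they overlapped little (92.4 to 119 in females, 113.8 to 146 in males). Control arrays of the lower animal numbers alone left 7 in Rapa-2 males and 8 between the sexes. The interaction had 12 without Rapa-2 males and 1 with the replicate block. For all Rapa males, where Itih2 was called, 1 model of all arrays gave 4, and 0 remained with either covariate, with the number run as a random block, with the replicate block, or with either run of control males alone. For Rapa-1 males the random block gave 1.

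Median scaling, which shifted all probes, turned small differences in Rapa females: Serpinf1 (0.25 to -0.090), Serpina11 (0.08 to -0.35) and Serpinf2 probes A and B (both to -0.34), beside a median of -0.20, and the Serpinf1 interaction (to -0.071). Serpinf1 in Rapa females also turned with the detected share (-0.042). Itih2 turned in all Rapa males (0.039 with the raw median) and in its interaction (-1.26 without Rapa-2 males). At another probe, Itih4 probe C turned to 0.10 in Rapa-2 males and 0.52 between the sexes, and Serpina1a to 0.35 for probe B and -0.45 for probe A between the sexes. The causes were not tested. Of 20 relations with Serpina3n, those with Saa1 included, 17 passed by r, and 16 with median scaling. The replicate numbers did not pair the mice (correlations from -0.53 to 0.46), and with the replicate block there were 10, 0, 0, 8, 16 and 1 calls in Rapa females, all Rapa males, Rapa-1 males, Rapa-2 males, between the sexes and for the interaction. Weak signal near background limits Itih5, Serpina5, Serpina4-ps1 and Serpina12 probe B.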
